A study of Homo sapiens with 11 samples.

Results

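The dual-specificity MAP kinase phosphatases examined here are 10 genes, DUSP1, DUSP2, DUSP4, DUSP5, DUSP6, DUSP7, DUSP8, DUSP10, DUSP14 and DUSP16, taken by symbol from the 20500 entries of the deposited expression table, and all 10 were found. They were measured in 786-O cells, a human clear cell renal carcinoma line without functional VHL, grown in DMEM (the labels end the name with the digit 0 in place of the letter). In 5 samples the cells had received everolimus, an inhibitor of the kinase mTOR, in DMSO for 4 h at a dose the labels write as "10um", read here as 10 µM, and in 6 samples DMSO vehicle alone (control). All samples are of 1 cell line, and the labels do not say whether each replicate was its own culture. The p-values given here therefore refer to the variation among these libraries, and that variation may be technical.

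MAP kinases (ERK, JNK and p38) are switched on when a MAP2K phosphorylates a threonine and a tyrosine in the activation loop, and dual-specificity phosphatases switch them off by removing both phosphates. The family is commonly divided by location and substrate. DUSP1, DUSP2, DUSP4 and DUSP5 are nuclear and encoded by inducible genes, DUSP6 and DUSP7 are cytoplasmic and selective for ERK, and DUSP8, DUSP10 and DUSP16 prefer p38 and JNK. DUSP14 is a small atypical member without the MAP kinase-binding domain. Several of these genes are themselves transcribed in response to MAP kinase activity, so that the phosphatase acts as feedback on the pathway that induced it. The values describe transcripts and do not measure phosphatase or kinase activity. Since the RNA is from bulk cultures, a difference in the number of cells that carry a transcript cannot be told apart from one in the amount per cell.

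Levels are in scaled estimated reads (units), with the upper quartile of the values above 0 set to about 1000 in each library, so they are not per transcript length and are compared here between samples and not between genes. Libraries held 29760752 to 52522753 estimated reads with everolimus and 14230631 to 36827392 in the controls, and 1 read was worth 0.307 to 0.527 units with everolimus and 0.418 to 1.05 units in the controls. A technical trait, the share of low values that are whole reads, divided the libraries into a first set (everolimus 1 and 2, controls 1 to 3) and a second set (everolimus 3 to 5, controls 4 to 6), and the main values are repeated within each set. Of 7 renal carcinoma markers 6 were tested, 4 rose and 2 fell, where 55.2% of all tested genes were called in either direction. That count depended on scaling. After quantile normalization MET was not called (log2 fold change -0.003, limma adjusted p = 0.955), and VIM was lower with everolimus (-0.21, limma adjusted p = 0.0128). PAX8 was at 3668 to 3931 units with everolimus and 3055 to 3285 in the controls, CDH6 was lower with everolimus (log2 fold change -0.92), as was PAX2 (-0.38), and CA9 did not exceed 3.15 units in any library. The 8 markers of other cell types summed to 130.0 to 158 units with everolimus and 117 to 163 in the controls, and CD3E and PECAM1 were at 0 in all libraries. EPCAM was present at 64.8 to 73.0 units with everolimus and 52.1 to 58.6 in the controls (log2 fold change 0.29). COL1A1 was at 54.0 to 72.3 and 44.6 to 96.5 units, and SYP at 10.0 to 20.9 and 12.6 to 23.3 units, in the same order.

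The promoter windows of 3 members are shown so that members with larger changes can be read side by side. DUSP1 and DUSP6 at least doubled with everolimus, and DUSP8 had the largest change of the p38/JNK-selective group. The search covered 250 bases before to 50 bases after the annotated start, from RefSeq for GRCh38.p14, and the 250 bases before it are printed, 5′ to 3′, whereas the expression values were made on hg19. Capitals mark matches on either strand to the cAMP response element TGACGTCA, its core TGACG (which lies inside it on both strands), the E-box CACGTG and the TATA box TATAAA, and 2 more motifs that were searched, the AP-1 site TGANTCA and the ETS site CCGGAAG, had no match.
DUSP1, minus strand, chr5:172771196-172771445: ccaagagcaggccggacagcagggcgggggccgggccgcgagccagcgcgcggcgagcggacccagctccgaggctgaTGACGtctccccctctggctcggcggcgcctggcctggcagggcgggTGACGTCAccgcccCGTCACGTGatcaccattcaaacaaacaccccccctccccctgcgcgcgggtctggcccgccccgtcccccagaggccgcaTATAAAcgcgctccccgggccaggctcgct
DUSP6, minus strand, chr12:89352502-89352751: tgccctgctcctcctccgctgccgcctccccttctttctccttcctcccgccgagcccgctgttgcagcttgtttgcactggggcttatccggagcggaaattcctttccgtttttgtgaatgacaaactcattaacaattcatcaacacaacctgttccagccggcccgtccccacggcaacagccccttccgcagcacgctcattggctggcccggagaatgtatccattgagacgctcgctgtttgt
DUSP8, minus strand, chr11:1572272-1572521: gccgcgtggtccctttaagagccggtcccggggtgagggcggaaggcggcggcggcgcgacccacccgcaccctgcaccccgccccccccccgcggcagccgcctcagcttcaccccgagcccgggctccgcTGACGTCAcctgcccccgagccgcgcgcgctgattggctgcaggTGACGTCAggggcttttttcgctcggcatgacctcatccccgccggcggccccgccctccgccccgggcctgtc

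The DUSP1 window held a full cAMP response element 125 bases before the start, a further core 172 bases and another 111 bases before it that overlaps the E-box, and a TATA box 30 bases before it. The DUSP8 window held 2 full cAMP response elements, 118 and 74 bases before the start. The DUSP6 window held none of the 6 motifs. In all, 9 windows of 8 members were searched, and neither DUSP4 nor DUSP5 was among them. A full cAMP response element was found in 2 of the 9, against 2.7% of the 13018 windows of tested genes. The core was found in 3 of 9 (31.4% of the windows of tested genes), the E-box in 2, those of DUSP1 and DUSP2 (9.3%), the TATA box in 1 (6.2%), and the AP-1 site (5.3%) and the ETS site (16.4%) in 0. These matches are letters in a window and not evidence of binding.

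All 9 members that could be tested were higher with everolimus and 0 were lower, in limma with Benjamini-Hochberg adjustment over all 12668 genes with a value of at least 10 units in at least 5 samples. The size differed widely. DUSP5, DUSP6, DUSP4 and DUSP1 at least doubled, whereas DUSP8, DUSP7, DUSP14, DUSP16 and DUSP10 rose by 0.52 or less on the log2 scale. In the same test 55.2% of all tested genes were called, 27.8% of them higher and 27.4% lower as shares of all tested genes. A log2 fold change of at least 1 was found in 4 of the 9 members and in 2.98% of all tested genes. DUSP4 reached the filter through its everolimus samples alone, so it had to differ to be tested, and without it 8 of 8 were called higher, 3 of 8 had a log2 fold change of at least 1 and 7 of 8 had groups that did not overlap. The 10th member, DUSP2, did not reach the filter. Everolimus and control samples did not overlap for 8 of the 9 members, DUSP10 being the exception, and 20.3% of all tested genes lay wholly above their controls.

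**Figure D1:**
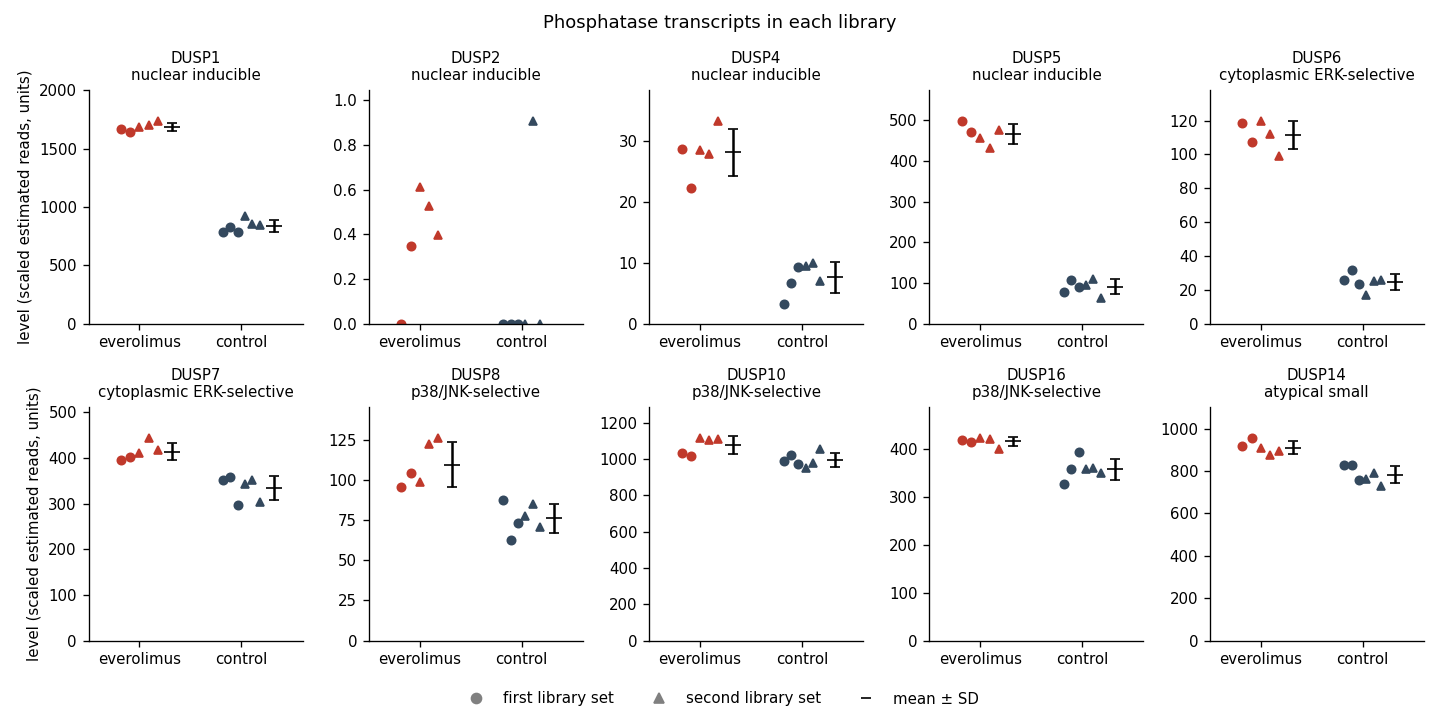
Level of each of the 10 phosphatase genes (y axis, scaled estimated reads in units, from 0) in the 5 everolimus and 6 control libraries (x axis). Points are libraries (circles the first library set, triangles the second) and bars are mean ± SD, not drawn for DUSP2, which stayed under 1 unit in every library; the everolimus points lie above all control points for every other gene but DUSP10.

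Of the nuclear inducible members, DUSP5, a phosphatase of ERK, changed most. It stood at 499, 471, 458, 433 and 477 units with everolimus (samples 1 to 5), against 62.3 to 111 units with a median of 92.5 in the controls. The lowest everolimus sample was well above the highest control, and both groups were tight relative to the gap between them. The mean was 467 ± 24.5 units with everolimus (SD, n = 5) and 90.7 ± 18.2 units in controls (SD, n = 6), a ratio of 5.15. The log2 fold change was 2.38 (SE 0.121, limma adjusted p = 7.23e-10), and 0.418% of tested genes had a larger one. Within the first library set it was 2.39 and within the second 2.38. The related pseudogene entry DUSP5P, named after its values were seen, was at 17.9 to 26.1 units with everolimus and 6.30 to 15.1 in controls (log2 fold change 0.83, SE 0.208, limma adjusted p = 0.00355). No stretch of 50 bases of the coding transcripts of DUSP5 in GENCODE 29 occurs in a transcript of another gene, but how reads were divided between DUSP5 and DUSP5P was not tested.

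DUSP1, the best known immediate early phosphatase, which acts on p38, JNK and ERK, was at 1670.0, 1644, 1684, 1704 and 1739 units with everolimus, against 783 to 920.3 units with a median of 837 in the controls. All 5 everolimus samples lay within a narrow band far above the controls. Means were 1688 ± 36.0 units with everolimus (SD, n = 5) and 836 ± 50.6 in controls (SD, n = 6), and the log2 fold change was 1.02 (SE 0.042, limma adjusted p = 8.04e-11). It was 1.05 with set 1 alone and 0.97 with set 2 alone. The fold was smaller than that of DUSP5, while the relative spread of both groups was the smallest among the 4 members that at least doubled.

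DUSP4, a nuclear phosphatase of ERK and JNK, was expressed at a low level. It had 28.8, 22.3, 28.5, 27.9 and 33.4 units with everolimus, or 53 to 93 estimated reads per library, against 3.21 to 9.99 units with a median of 8.20 in the controls, or 4 to 22 reads. The groups did not overlap, and every control library was under the 10 units of the filter. The log2 fold change was 1.81 (SE 0.238, limma adjusted p = 1.55e-05), the widest error in the family, and the ratio of means was 3.69. The fit gave 1.92 in the first set of libraries and 1.66 in the second. The value depended on the constant added before taking logs, since adding 10 units gave 1.12. DUSP2, known mainly from activated blood cells, was at or near 0 throughout. It had 5 estimated reads over the 5 everolimus libraries and 2 over the 6 control libraries, and no library exceeded 3 reads (0.920 to 3.15 units per library), so no fold is given and a difference was not detectable at this depth (exact two-sided permutation test, p = 0.199).

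The cytoplasmic ERK-selective members differed from each other. DUSP6, a canonical ERK feedback phosphatase, was at 119, 108, 119.9, 112 and 99.4 units with everolimus (213 to 391 estimated reads), against 16.8 to 31.8 units with a median of 25.6 in the controls (16 to 62 reads). The lowest everolimus sample was well above the highest control. Means were 112 ± 8.49 units with everolimus (SD, n = 5) and 24.8 ± 4.86 in controls (SD, n = 6), a ratio of 4.50, with a log2 fold change of 2.15 (SE 0.133, limma adjusted p = 5.96e-09). It was 2.04 in the first set of libraries and 2.25 in the second. GENCODE 29 places the antisense gene AC024909.2 over exons of DUSP6. The library kit keeps strand, but whether counting used it is not given in the sources used here, so reads of the 2 genes cannot be told apart.

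DUSP7, the other cytoplasmic member of this class, was at 395, 402, 410.2, 444 and 417 units with everolimus, against 296 to 358 units with a median of 347 in the controls. The groups did not overlap but came close. Its log2 fold change was 0.31 (SE 0.059, limma adjusted p = 0.000448), with 0.25 in the first set of libraries and 0.35 in the second. The difference between the log2 fold changes of DUSP6 and DUSP7 was 1.83 (SE 0.136), tested on the ratio of the 2 genes in each sample with an exact two-sided permutation test (p = 0.00433, the smallest that 5 against 6 samples can give; adjusted p = 0.00623 over 36 pairs of members).

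Changes of the p38/JNK-selective members were smaller than those of DUSP5, DUSP6, DUSP4 and DUSP1. A larger log2 fold change was found in 8.37% of tested genes for DUSP8, 22.1% for DUSP16 and 31.8% for DUSP10. DUSP8 had 96.0, 104, 99.0, 122 and 126 units with everolimus, against 62.9 to 87.5 units with a median of 75.4 in the controls. The everolimus samples all lay above the controls, with a spread of similar width in both groups. The log2 fold change was 0.52 (SE 0.103, limma adjusted p = 0.000632), 0.43 in the first set of libraries and 0.57 in the second. Of its stretches of 50 bases, 1.96% also occur in the pseudogenes DUSP8P3, DUSP8P4 and DUSP8P5, while in no library was the value further than 0.01 reads from a whole number.

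DUSP16, which acts chiefly on JNK, was at 420.1, 414, 424, 421 and 401 units with everolimus and 327 to 394 units, median 358, in the controls, a log2 fold change of 0.22 (SE 0.047, limma adjusted p = 0.00126). The margin between the groups was narrow, 401 units in the lowest everolimus sample and 394 in the highest control. The change was 0.22 in each library set, but with the first set alone it did not pass (adjusted p = 0.060). DUSP10, a phosphatase of p38 and JNK, was at 1034, 1018, 1119, 1107 and 1113 units with everolimus, against 952 to 1054 units with a median of 985 in the controls. The first 2 everolimus samples fell inside the range of the controls, and the others lay above it. Its log2 fold change of 0.12 (SE 0.039, limma adjusted p = 0.021) was the smallest of the family. That call was lost within the first library set (0.05, adjusted p = 0.503), after quantile normalization (0.08, adjusted p = 0.079) and without any of everolimus samples 3, 4 and 5 (0.10 to 0.11), and it held within the second set (0.16, adjusted p = 0.043).

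DUSP14, the atypical member, had 920.3, 958, 909, 875 and 893 units with everolimus and 730.2 to 828 units, median 777, in the controls. The groups did not overlap, and the gap between them was of the order of the spread within each. The log2 fold change was 0.22 (SE 0.041, limma adjusted p = 0.000420), with 0.22 in the first set of libraries and 0.23 in the second. For DUSP1, DUSP4, DUSP5, DUSP6, DUSP7, DUSP10, DUSP14 and DUSP16 no stretch of 50 bases was shared with another gene's transcripts. When the fit was given a term for unequal response of the 2 library sets (limma), none of the 9 members was called, with unadjusted p-values from 0.146 for DUSP10 to 0.966 for DUSP16. That term called 0 of all tested genes, with 783 at an unadjusted p under 0.05.

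**Figure D2:**
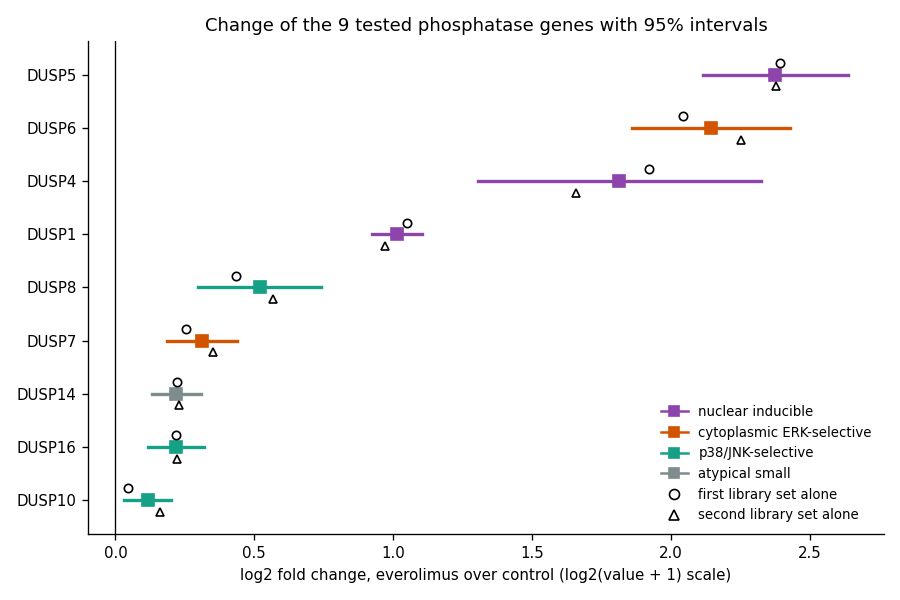
Log2 fold change of everolimus over control (x axis, log2(value + 1) scale) for the 9 tested members (y axis), coloured by class. Squares are the fit over all 11 libraries with 95% intervals, open circles the first library set alone and open triangles the second; DUSP5 (2.38), DUSP6 (2.15), DUSP4 (1.81) and DUSP1 (1.02) stand apart from the other 5, which lie at 0.52 or below.

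Sorted by the size of the log2 fold change, the members ran DUSP5, DUSP6, DUSP4, DUSP1, DUSP8, DUSP7, DUSP14, DUSP16 and DUSP10. Each pair was compared by the exact two-sided permutation test on the log2 ratio of both genes per sample, and 26 of 36 pairs passed after adjustment over the 36 pairs. Each of the 4 members that at least doubled differed from each of the 5 others, by 0.49 (DUSP1 over DUSP8, SE 0.107) to 2.26 (DUSP5 over DUSP10, SE 0.149), with adjusted p = 0.00623 for each pair. That split was drawn from these same changes, so the tests are not independent support for it. The p before adjustment was the smallest the test can give for each of these pairs, so it does not rank them. DUSP1 changed less than DUSP5, DUSP6 and DUSP4, by 1.36, 1.13 and 0.80. Pairs with DUSP4 need care, since it had to be higher to be tested, and without it 20 of 28 pairs passed. Its place also rested on the constant added before taking logs. With 10 units added, an alternative chosen after seeing the data, DUSP4 over DUSP1 was 0.12 (SE 0.096, permutation adjusted p = 0.303), DUSP5 over DUSP4 was 1.14 (permutation adjusted p = 0.00649) and DUSP6 over DUSP4 was 0.69 (permutation adjusted p = 0.012). With 1 unit added, no pair among DUSP5, DUSP6 and DUSP4 passed. DUSP5 over DUSP6 was 0.23 (SE 0.179, permutation adjusted p = 0.274) and DUSP5 over DUSP4 was 0.56 (SE 0.217, permutation adjusted p = 0.0668), which does not show that they changed alike. In the lower part of the order, DUSP8 differed from DUSP14 and DUSP10, DUSP7 differed from DUSP10, and no difference between DUSP8 and DUSP7 or DUSP16 passed. DUSP14 over DUSP16 was 0.00 (SE 0.060). The larger changes thus included 3 of the 4 nuclear members, DUSP2 being untested and DUSP4 bound to be higher to be tested. They also included 1 of the 2 cytoplasmic ERK-selective members, and none of the p38/JNK-selective group. DUSP9, a cytoplasmic ERK-selective gene outside the members, had a log2 fold change of -0.30 with groups that overlapped.

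**Figure D3:**
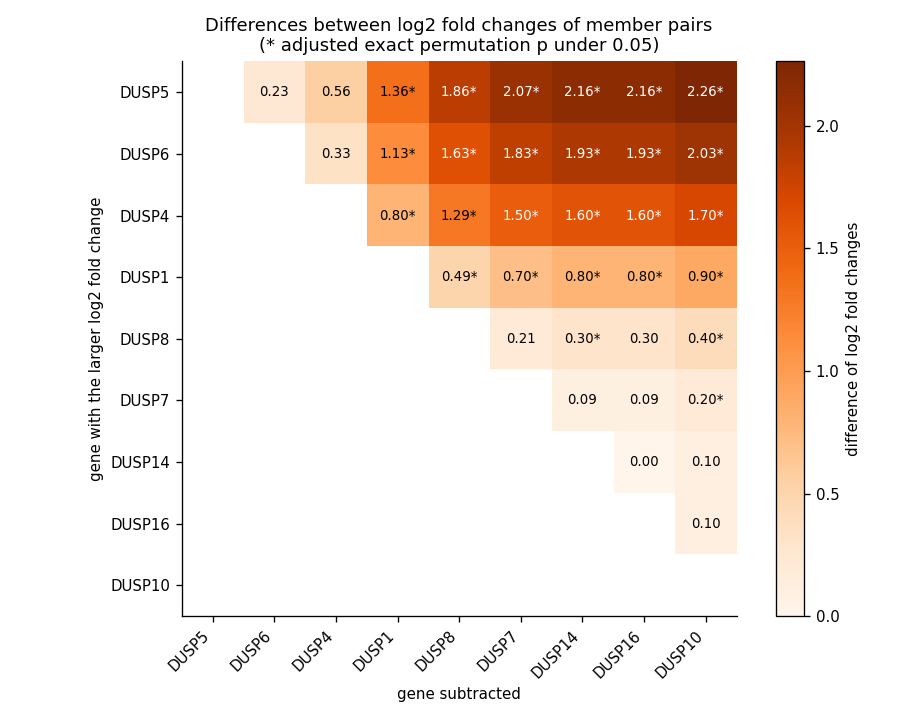
Difference between the log2 fold changes of each pair of the 9 tested members (gene on the y axis minus gene on the x axis, colour and number in log2 units). Stars mark the 26 of 36 pairs with an exact permutation p under 0.05 after adjustment over the pairs; the pairs of DUSP5, DUSP6 and DUSP4 with each other have none with the 1 unit added here.

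The genes most like DUSP5, the member with the largest rise, were sought among the tested genes outside the family by the root mean square difference, over the 11 samples, of log2 levels set relative to the control mean. They were HBEGF, an EGF receptor ligand (difference 0.104 log2 units), CD83, a surface protein of activated immune cells (0.147), and CD274, the checkpoint ligand PD-L1 (0.157). HBEGF was at 623 ± 15.7 units with everolimus and 119 ± 25.5 units in controls. Their log2 fold changes were 2.41, 2.45 and 2.36, so the measure found genes with a change of like size. No member fell, so no such search was made for a fall.

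The substrates of the phosphatases and the MAP2Ks that activate them moved in both directions. Of 17 genes in this list, all tested, 8 rose and 4 fell, with a median log2 fold change of 0.05, against -0.01 over all tested genes, and the 70.6% called compare with 55.2% of all tested genes. MAP2K3 and MAP2K6, the MAP2Ks that phosphorylate p38, moved apart. MAP2K3 averaged 1459 ± 39.8 units with everolimus (SD, n = 5) and 518 ± 36.5 in controls (SD, n = 6), a log2 fold change of 1.49 (SE 0.048, limma adjusted p = 6.02e-12). MAP2K6 averaged 54.8 ± 1.48 units with everolimus and 125 ± 13.3 in controls, a log2 fold change of -1.17 (SE 0.080, limma adjusted p = 1.63e-08). Of the MAP kinases, MAPK8 (a JNK, 0.45) and MAPK7 (ERK of the MEK5 branch, 0.53) rose, and the JNK gene MAPK10 (-0.56) and MAP2K5 (-0.23) fell. MAPK10 lost its call in the second set of libraries (-0.38, limma adjusted p = 0.111) and MAP2K5 in both sets (limma adjusted p = 0.107 and 0.0728). Quantile normalization gave 8 higher and 6 lower in this list.

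Of 23 RAF kinases and MAP3Ks 21 were tested, 6 rose and 5 fell, and their median log2 fold change was -0.01. The 52.4% called was near the 55.2% of all tested genes. After quantile normalization 6 were higher and 7 lower. MAP3K8, which activates the ERK branch through its MAP2Ks, had the largest change of this list, 802 ± 15.5 units with everolimus and 145 ± 4.21 in controls (log2 fold change 2.46, SE 0.040, limma adjusted p = 6.78e-15), close in size to DUSP5. MAP3K5 (0.56) and MAP3K4 (0.28) rose, and MAP3K1 (-0.91), MAP3K12 (-0.90) and MAP3K7 (-0.21) fell. Of 11 kinases activated by MAP kinases 10 were tested, 2 rose and 5 fell, with a median of -0.06. The share called was 70%, against 55.2% of all tested genes, of which 27.8% were higher and 27.4% lower. Quantile normalization left 1 higher and 5 lower. RPS6KA5, a nuclear kinase of histones and CREB, was at 259 ± 15.7 units with everolimus and 123 ± 15.1 in controls (1.07), and RPS6KA4 at 0.16 lost its call after quantile normalization (adjusted p = 0.0964) and in the second library set. MKNK2 (-0.53), MAPKAPK3 (-0.30) and MAPKAPK2 (-0.15) fell, the call of MAPKAPK2 being lost in the first set of libraries (limma adjusted p = 0.0626).

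Among 24 other phosphatases, chiefly other dual-specificity members and enzymes known to act on MAP kinases, 17 were tested, 7 were called higher and 5 lower (70.6% called, against 55.2% of all tested genes), the median being 0.10. DUSP3, a small atypical phosphatase of ERK and JNK, averaged 2247 ± 40.4 units with everolimus (SD, n = 5) and 1417.5 ± 55.4 in controls (SD, n = 6), a log2 fold change of 0.66 (SE 0.033, limma adjusted p = 5.04e-10). PTPRR, a tyrosine phosphatase of ERK and p38, rose by 1.24 (SE 0.098) and DUSP18 by 0.54, while PPM1B (-0.28), PPP2CA (-0.16) and PPM1D (-0.23) fell. PPM1D lost its call in the second set of libraries (-0.21, limma adjusted p = 0.109). DUSP9, the third cytoplasmic ERK-selective phosphatase, was at 46.3 to 65.2 units with everolimus and 54.6 to 75.1 in controls (log2 fold change -0.30, SE 0.107, limma adjusted p = 0.0287). Its groups overlapped, and its call was lost within each library set (adjusted p = 0.246 and 0.0833).

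Feedback inhibitors and transcripts that follow ERK activity changed in 1 direction. Of 14 in the list 12 were tested, 12 rose and 0 fell (median 0.86), where 27.8% of all tested genes rose and 27.4% fell, and this pattern was known from these data when the list was made. ETV5, a transcription factor of the ERK pathway, averaged 661 ± 23.6 units with everolimus and 191 ± 33.8 in controls (1.80, SE 0.096, limma adjusted p = 1.17e-09). EPHA2 (0.85) and PHLDA1 (0.87) rose too. In this list SPRY4, an inhibitor of receptor signalling to ERK, had the largest log2 fold change (2.96, SE 0.247), at 45.7 to 51.1 units with everolimus and 2.51 to 10.5 in controls, and is named for its size. Its everolimus libraries met the filter of 10 units by themselves, while its control median was 5.27 units. So did those of ETV4 (34.8 to 48.2 units), whose control median was 9.22 units. How far the folds of SPRY4 and ETV4 rest on the constant added before taking logs was not tested. With the filter of 50 units, 9 genes of the list were called.

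**Figure D4:**
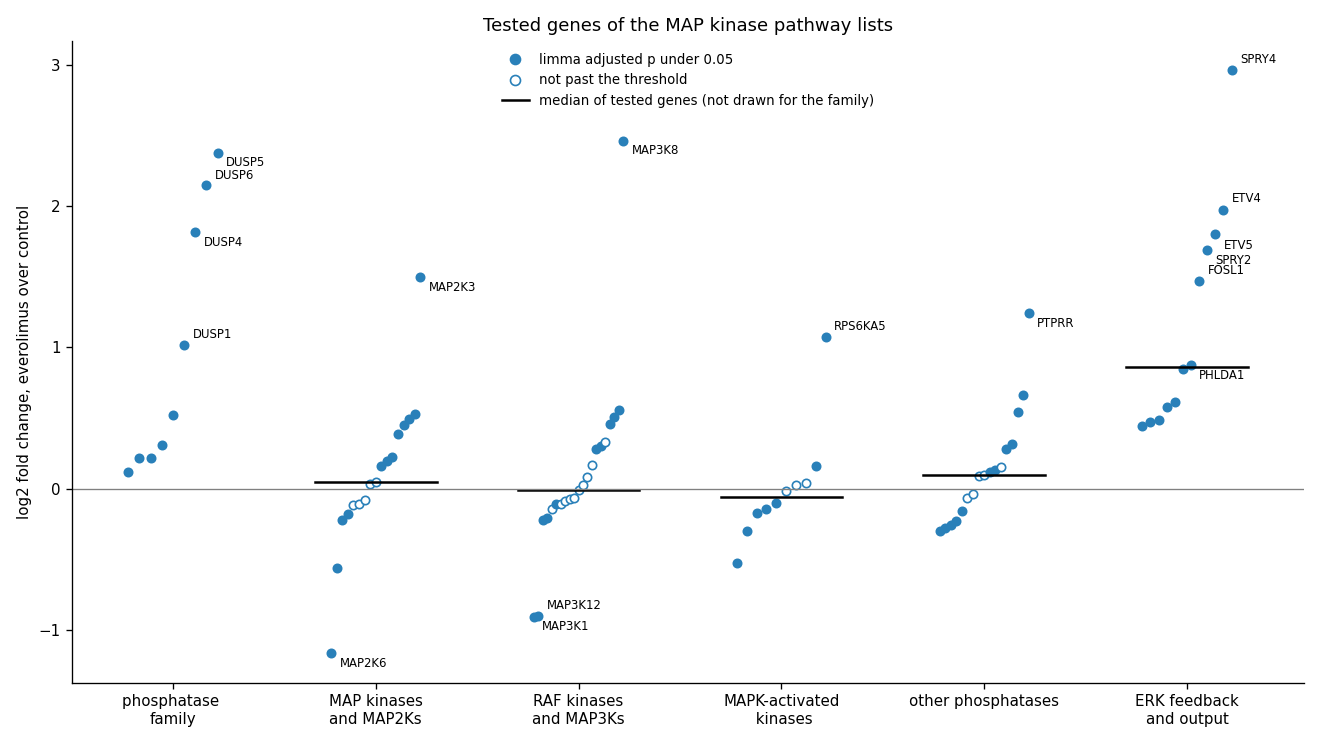
Log2 fold change of everolimus over control (y axis) for the tested genes of the phosphatase family and 5 other lists of the MAP kinase pathway (x axis). Filled points passed limma at an adjusted p under 0.05, open points did not, and horizontal bars are medians (0.05, -0.01, -0.06, 0.10 and 0.86 for the lists after the family, from left to right); the family and the ERK feedback list have no tested gene below 0.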

How the data were processed

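Polyadenylated RNA was sequenced from 11 samples of 786-O cells (TruSeq stranded mRNA kit, per the labels' protocols). The values the authors deposited are a signal per gene, scaled so that the upper quartile of the values above 0 (percentile 75) is 1000 to within 2 units in each column, and 0 columns were left unused. The submitters' processing notes name hg19, Picard 1.64, SAMtools and RSEM without roles. Neither the aligner nor the annotation is given in the sources used here. The step of 1 read was recovered from low values, of which 89.4% to 94.0% were whole within 0.1 reads, so no count model was used. The floor of 3 reads covers counting error only, and the 95% intervals of fold changes come from limma and the variation among libraries.

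Everolimus was compared with control on log2(value + 1) by limma 3.58.1 under R 4.3.3, its variance prior following the mean level, for genes with at least 10 units in at least 5 samples, with two-sided p-values, Benjamini-Hochberg adjustment across the 12668 genes that remained and a threshold of 0.05. Fold changes are on that scale and understate changes of low genes. Exact permutation over the 462 ways to choose 5 of 11 samples was applied to each member's difference in mean log2 level. It was also applied to the log2 ratio of each pair of tested members. The fit was tested on simulated data with independent noise in each gene and sample, and so without the library sets. Of 100 genes changed by 0.5 on the log2 scale 72% were recovered, and of 100 changed by 1, 95%. Of the unchanged genes 0.072% were called. The members, gene lists and tests were chosen with earlier results of these data known. Named genes are all members and, of each other list, up to 3 with the smallest p in each direction, and others are named where the text says so or where their role in the pathway called for it. Alternatives covered scaling, filter, pseudocount, trend, library set, replicate block and leaving out each sample.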

Additional observations from a re-analysis of the deposited data

Results flagged for a closer look

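Levels of 36 genes, the members and the list genes named by smallest p, were searched for a library far from the rest of its group. In 72 groups of values 4 were found, where chance alone gives about 1 in 20. Other genes named in the text, such as SPRY4, DUSP9 and HBEGF, were not searched. In control 5, DUSP2 stood at 0.908 units, which is 2 reads, with 0 in the other 5 controls. For MAPK8, everolimus 3 was high at 794.7 units (the nearest other everolimus library had 728) and control 1 low at 517.7 units (nearest 539). For MAP3K8, everolimus 1 was low at 774.3 units (nearest 805), still far above every control. None of the 9 tested members of the phosphatase family had such a library in either group.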

How the results depend on the processing

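DUSP1, DUSP4, DUSP5, DUSP6, DUSP7, DUSP8 and DUSP14 kept their direction and their call under every alternative that gave them a value (17 for DUSP4, 23 for each of the others), with log2 fold changes of 0.97 to 1.05, 1.12 to 1.95, 2.26 to 2.44, 1.81 to 2.25, 0.25 to 0.35, 0.43 to 0.57 and 0.19 to 0.24 in this order. DUSP4 gave none under the filter of 50 units or without any 1 everolimus sample. Only its everolimus libraries reached the filter of the main fit, so with that filter DUSP4 had to be higher to be tested. Its kept call under those alternatives was therefore largely fixed in advance. With no filter DUSP4 was called too (log2 fold change 1.81, limma adjusted p = 2.38e-05). DUSP16 lost its call in the first library set alone (0.22), and DUSP10 lost it under 5 alternatives (0.05 to 0.11); the cause was not tested. The number of members called higher was 7 to 9 over all alternatives, with 0 called lower, against 9 and 0. All tested genes called numbered 5482 to 7281, against 6997. In the second library set alone, 4 kinases activated by MAP kinases and 6 other phosphatases were called, and in the first alone 5 and 9, against 7 and 12 with all libraries; the cause was not tested. Across all tested genes the median change was -0.01 (log2) as deposited and -0.04 after quantile normalization. With the replicate block, 6264 genes and 9 members higher were called, but the numbers showed no clear pairing. Correlations of deviations within pairs ran from -0.508 to 0.603, and 1 of 5 everolimus samples correlated best with the control of its own number. Their sign followed the library sets. Everolimus and control libraries of the same set correlated at 0.318 to 0.612, and those of different sets, such as everolimus 3 and control 3 (-0.508), negatively. Depth limits DUSP2, under 3 reads in every library, and DUSP4, at 4 to 22 reads in the controls.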
